A study of Mus musculus with 12 samples.

Results

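Nuclear-encoded subunits of the respiratory chain were followed in mouse small intestine crypts and colon tumors, complex by complex. The members are the protein-coding genes named Nduf followed by a, b, c, s or v and a digit (complex I), Sdha to Sdhd (complex II), Uqcr (complex III), Cox4 to Cox8 (complex IV) and Atp5 (complex V). Such names were carried by 85 of the 54532 genes in each of 2 expression tables, with 84 different symbols because Atp5o is listed under a second identifier at 0. Levels are given as FPKM, counted fragments divided by gene length in kilobases and by a scale factor for each library, and genes with a mean of at least 0.5 FPKM over the 6 libraries of a table were tested. In crypts 78 members passed, 36 of complex I, 4 of complex II, 8 of complex III, 13 of complex IV and 17 of complex V. In tumors 80 passed, with 37 in complex I, 4 in II, 8 in III, 14 in IV and 17 in V, and the 78 members of the crypts were among them. Below the minimum in crypts were Cox6a2, Ndufa4l2, Cox4i2, Cox7b2, Cox8b, Cox8c and the second Atp5o, and in tumors Cox8b, Cox6a2, Cox7b2, Cox8c and the second Atp5o. Just outside the minimum stood Cox6a2 in crypts at a mean of 0.467 FPKM and Cox8b in tumors at 0.230, and just inside stood Cox6b2 at 2.05 and Ndufb2 at 1.93.

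The study deleted ieCtnnb1, an intestinal enhancer upstream of Ctnnb1, the gene of β-catenin, and asked how its loss changes gene expression in the epithelium. Crypts from adult, untreated wild-type and ieCtnnb1KO mice gave 3 libraries each, and colon tumors from 5-month-old, untreated APCmin/+ and APCmin/+;ieCtnnb1KO mice gave 3 libraries each. The ieCtnnb1KO mice carry the deletion on both alleles in every cell from the germline on, and APCmin/+ mice carry 1 mutant allele of Apc, a brake on β-catenin, in all cells. Crypts were released and filtered from whole small intestine, and the replicates of a group are separate mice according to the figure legends. From the smallest step between values, fragment numbers could be recovered for 100% of values, which put between 14457896 and 16156712 fragments on genes in each of the 12 libraries.

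As background, complexes I and II pass electrons from NADH and succinate to ubiquinone, complex III hands them to cytochrome c, complex IV gives them to oxygen, and complex V uses the proton gradient built on the way to make ATP. Complexes I, III, IV and V surround the core that carries out the chemistry with supernumerary subunits and mix nuclear subunits with proteins encoded in mitochondrial DNA. In the intestine, absorptive cells and the stem cells of the crypt base are known to depend on oxidative phosphorylation, and colon tumors driven by Wnt signaling are known for a strong glycolytic metabolism.

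Ctnnb1, the gene under the deleted enhancer, had FPKM of 121, 134 and 123 in wild-type and 102, 104 and 105 in ieCtnnb1KO crypts. All 3 knockout crypt libraries lay below all 3 wild-type libraries, with a log2 fold change of -0.28 and an adjusted p = 0.849 in limma. Tumors held Ctnnb1 at 299, 363 and 358 in APCmin/+ and 279, 248 and 250.2 in APCmin/+;ieCtnnb1KO tumors. Again the groups did not overlap, with a log2 fold change of -0.39 and an adjusted p = 0.303 in limma. Neither value passed the threshold of 0.05.

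Several libraries stood apart for the members. Of the 78 members in crypts, 30 had their highest value in wild-type replicate 3 and 52 their lowest in wild-type replicate 2. Relative to the mean of the 6 libraries on the log2 scale, the 19 members shorter than 1 kb had a median of 0.50 in wild-type replicate 3, against -0.20 and -0.42 in wild-type replicates 1 and 2. The 29 members longer than 2 kb had a median of -0.18 in the same library, so that short members were high there and long members low. All 398 tested protein-coding genes shorter than 1 kb had a median of 0.21 in that library, so other short genes shared the pattern. In tumors, 71 of 80 members had their highest value in APCmin/+;ieCtnnb1KO replicate 3 and 51 their lowest in APCmin/+ replicate 3. Xist, which is transcribed in females, was at 114 and 61.4 FPKM in replicate 3 of the 2 tumor groups and under 0.1 FPKM in the other libraries, so that both groups held 1 female and 2 males.

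Levels differed more between members than between genotypes. The median of the members' mean FPKM in crypts was 46.5 for complex I, 111 for complex II, 125 for complex III, 141 for complex IV and 74.9 for complex V, against 5.17 over all genes tested. In the tumor table the same medians were 41.5, 53.1, 81.8, 81.6 and 49.9 FPKM, against 5.81 over all genes. The tables were scaled apart, so levels are not compared between them. Across the 78 members the order of levels was much alike, with a Spearman correlation of 0.915 between the tables, where genes are not independent replicates. The most abundant member in crypts was Cox6a1, the form of subunit 6a found in most tissues, at a mean of 579.5 FPKM, followed by Atp5a1, the α subunit of ATP synthase, at 521. In tumors the highest was Cox8a, a small membrane subunit of complex IV, at 429 FPKM. The lowest tested members were Cox6b2, Ndufb2 and Atp5s in crypts, all with means under 10 FPKM, joined in tumors by Cox4i2, Ndufa4l2 and Cox7a1. The spread of FPKM within a complex describes transcripts only.

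**Figure D1:**
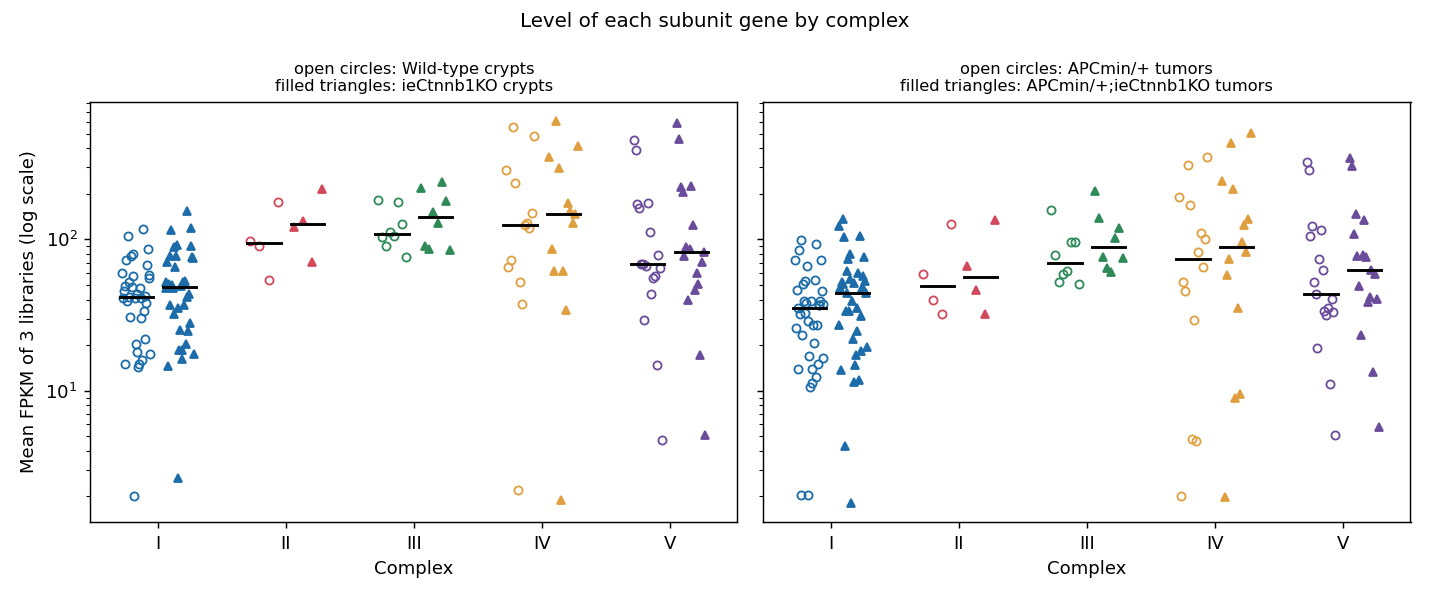
Mean FPKM of 3 libraries for each subunit gene (log scale) by complex, in crypts on the left and tumors on the right. Open circles are control libraries, filled triangles are knockout libraries, and bars are medians over the genes of a complex. In crypts the median member lay at 46.5 FPKM in complex I and at 141 FPKM in complex IV over all 6 libraries.

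The members share features that their names do not fix. They lie on 19 chromosomes, their median gene length in the table was 1578 bases (from 419 to 8086), and 20 of the 80 are shorter than 1 kb. Promoters, taken as 250 bases before to 50 after each start in RefSeq (GRCm38.p6), were found for 66 of the 80 members, 64 by symbol and 2 by an older symbol. The binding motif of NRF1, a factor known for activating respiratory genes, was searched on both strands as GCGCANGCG and occurred in 20 of the 66, or 30.3%, against 7.03% of the 27025 genes with a promoter. By complex this was 8 of 32 in complex I, 2 of 3 in complex II, 2 of 5 in complex III, 1 of 11 in complex IV and 7 of 15 in complex V. The GABP or ETS motif CCGGAAG was in 24.2% of members and 9.93% of genes, and the YY1 motif AAGATGGC in 15.2% and 3.19%. SP1, searched as GGGCGG, was matched in 40.9% of members and 38.2% of genes. The remaining shares were 6.06% and 2.03% for TGACGTCA (CREB), 12.1% and 5.38% for AAGGTCA (ERR), and 1.52% and 4.29% for CTTTGAT, the TCF/LEF motif through which β-catenin is known to act. Over all 32851 promoters of this length, the NRF1 letters were in 6.25% and the TCF/LEF letters in 3.73%. A match is a description of letters and not of binding.

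To show what these matches look like, a stretch upstream of the start is printed for 1 member of each complex, chosen after the values were seen. Only members with 1 promoter and at least 100 bases before the start free of annotated exons could be printed, which leaves out NRF1-matched members such as Ndufa11. Among these, the member with the smallest crypt p whose stretch holds NRF1 letters is shown, or the member with the smallest p where none of the stretches in a complex holds them. The stretches end where annotated exons begin, 16 bases short of the RefSeq start in Ndufs5, 68 in Sdhb, 46 in Uqcrfs1, 23 in Cox6a1 and 9 in Atp5l, and distances below are counted from that start. Capitals mark motif matches on either strand.
Ndufs5, GRCm38.p6 chr4:123718203-123718436, minus strand: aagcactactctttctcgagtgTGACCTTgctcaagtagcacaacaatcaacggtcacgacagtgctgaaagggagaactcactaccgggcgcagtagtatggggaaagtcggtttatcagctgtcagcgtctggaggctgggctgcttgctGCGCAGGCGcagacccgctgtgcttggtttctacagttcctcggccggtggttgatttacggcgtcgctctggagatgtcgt
Sdhb, GRCm38.p6 chr4:140961021-140961202, plus strand: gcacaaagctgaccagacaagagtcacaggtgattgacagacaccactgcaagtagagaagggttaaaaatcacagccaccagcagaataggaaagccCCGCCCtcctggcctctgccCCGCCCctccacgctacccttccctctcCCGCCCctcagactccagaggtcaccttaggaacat
Uqcrfs1, GRCm38.p6 chr13:30545363-30545566, minus strand: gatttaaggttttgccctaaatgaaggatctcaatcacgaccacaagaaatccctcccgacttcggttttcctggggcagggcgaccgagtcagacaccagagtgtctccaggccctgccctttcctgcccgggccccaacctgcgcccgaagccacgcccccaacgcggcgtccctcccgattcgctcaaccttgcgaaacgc
Cox6a1, GRCm38.p6 chr5:115348982-115349129, minus strand: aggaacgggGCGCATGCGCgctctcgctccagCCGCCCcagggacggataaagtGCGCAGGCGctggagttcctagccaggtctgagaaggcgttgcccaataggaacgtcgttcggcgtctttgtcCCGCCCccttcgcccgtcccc
Atp5l, GRCm38.p6 chr9:44920752-44920992, minus strand: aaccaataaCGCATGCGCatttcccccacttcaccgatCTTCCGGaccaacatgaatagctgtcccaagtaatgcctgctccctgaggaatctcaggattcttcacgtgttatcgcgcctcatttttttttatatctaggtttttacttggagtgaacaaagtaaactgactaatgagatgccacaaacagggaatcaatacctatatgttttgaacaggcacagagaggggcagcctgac
In Ndufs5, a supernumerary subunit of complex I, the NRF1 letters began 98 bases before the start, and an ERR match on the opposite strand lay farther out. Sdhb, the iron-sulfur subunit of complex II, had SP1 matches on the opposite strand at 152, 132 and 104 bases before the start. Cox6a1 carried NRF1 letters at 162 and 117 bases, the outer of them on both strands because the overlapping run reads alike in either direction, and SP1 matches on the opposite strand at 139 and 44. For Atp5l, subunit g of ATP synthase, an NRF1 match began 241 bases and a GABP or ETS match 212 bases before the start, both on the opposite strand, in a stretch inside the span of the gene Gm30934. The stretch of Uqcrfs1, the Rieske iron-sulfur protein of complex III, held none of the 7 motifs, though its whole promoter held a CREB match. Outside the printed bases, the promoters of Sdhb and Cox6a1 also held a GABP or ETS match and that of Atp5l an ERR match.

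In crypts, most members were higher in ieCtnnb1KO than in wild-type libraries, and this held for all core subunits of complexes I, II, III and V, also under each scaling tried. Of 78 members, 66 were higher (84.6%, against 52.8% of the 14176 genes tested) by the fit on the log scale, and 61 by mean FPKM, and the members' median stayed above 0 under each scaling tried. The test in limma called 0 of 78 members at an adjusted p under 0.05 (0.0% of all genes), with a lowest adjusted p of 0.728 among members. At an unadjusted p under 0.05, 27 members were higher (34.6%, against 3.48% of all genes) and 0 lower (against 2.36%). All 3 knockout libraries lay above all 3 wild-type libraries for 35 members (44.9%, against 6.79% of all genes) and below them for 0 (against 5.15%). The median log2 fold change was 0.26 over the members and 0.01 over all genes tested. By complex the medians were 0.22, 0.35, 0.28, 0.24 and 0.26 from I to V. In bulk tissue, more cells with many mitochondria and more RNA of these genes per cell cannot be told apart.

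Wild-type replicate 3 carried much of the spread. Without it, 77 of 78 members were higher, the median log2 fold change was 0.35, and the number at an unadjusted p under 0.05 was 46 (59%, against 5.23% of all genes), and 3 genes in the whole table passed the adjusted threshold. Leaving out ieCtnnb1KO replicate 1 instead left 7 (8.97%, against 1.7% of all genes), ieCtnnb1KO replicate 2 left 12 (15.4%, against 2.9% of all genes), and wild-type replicate 2 left 11 (14.1%, against 2.27% of all genes). Quantile normalization, which forces all libraries onto 1 distribution, left 8 (10.3%, against 2.61% of all genes). The complex medians without wild-type replicate 3 were 0.32, 0.43, 0.35, 0.31 and 0.37 from I to V, all larger than with it. Without wild-type replicate 2, the library with the lowest values, the medians of complexes I and IV were 0.12 and 0.06.

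**Figure D2:**
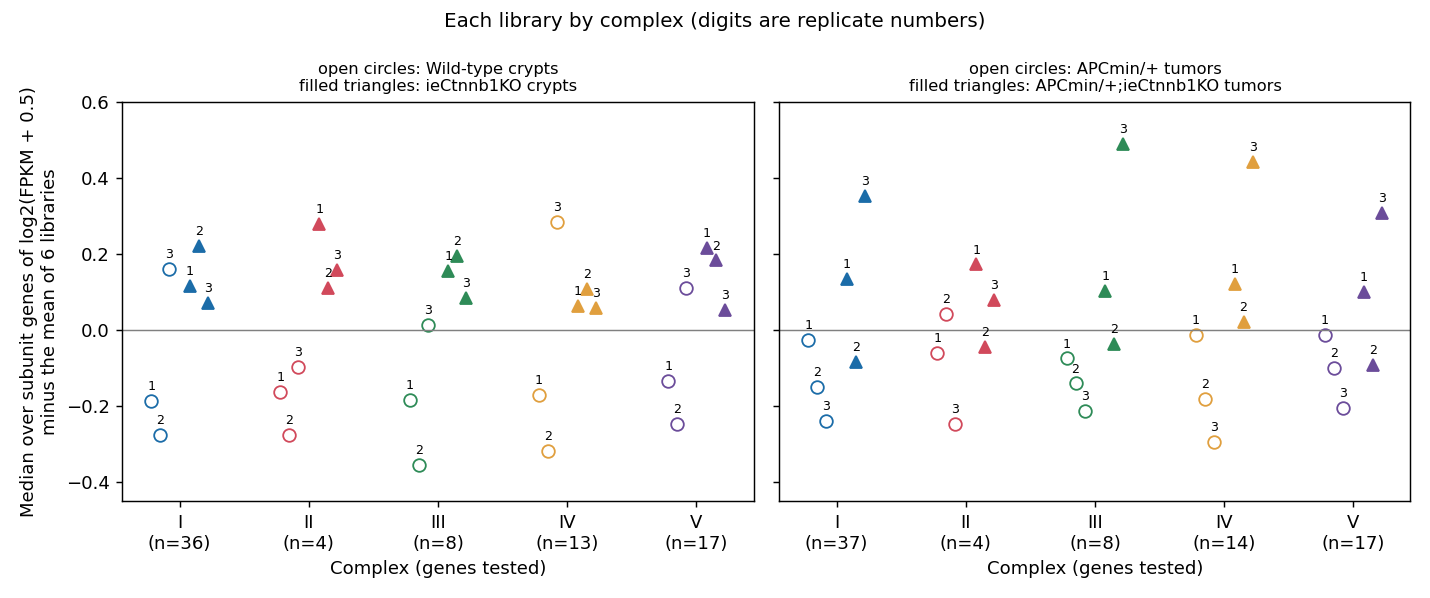
Median over the subunit genes of each complex of log2(FPKM + 0.5) minus the mean of the 6 libraries of the table, for each library. Open circles are control libraries and filled triangles knockout libraries, with replicate numbers beside them. Wild-type crypt replicate 3 lies at 0.28 for complex IV and at -0.10 for complex II, and tumor knockout replicate 3 lies highest for complexes I, III, IV and V.

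The subunits were also divided by role, a division made after the values had been seen, into 22 core and 56 supernumerary subunits in crypts. Their median gene lengths were 2210 and 1227 bases. Core subunits were taken as the conserved subunits of complexes I and II and the Rieske and the 2 core proteins of complex III. In complex V they were the catalytic head, the central stalk and subunit c, while Atp5f1 and Atp5o were counted as supernumerary. The core set is thus wider than the subunits that carry out the chemistry. Complex IV has no nuclear core subunit, since its catalytic subunits are encoded in mitochondrial DNA. All 22 core subunits were higher in ieCtnnb1KO crypts, also under each scaling tried, with a median log2 fold change of 0.38. The groups did not overlap for 19 of them, and 16 had an unadjusted p under 0.05 (86.4% and 72.7%, against 6.79% and 3.48% of all genes). The second count was 10 with the same total per library, 9 with the same total without the 50 highest genes and 3 with quantile normalization. Over all genes these shares were 3.33%, 2.22% and 2.61%. Of the 56 supernumerary subunits, 44 were higher, with a median of 0.17, and 11 had an unadjusted p under 0.05. With quantile normalization 38 were higher, with a median of 0.10 and 5 at that level (against 2.61% of all genes). With the same total without the 50 highest genes 7 were at that level (against 2.22%). In wild-type replicate 3 the core subunits had a median of -0.25 relative to the 6 libraries and the supernumerary subunits a median of 0.25. Without that library, the medians of the fold changes were 0.36 for core and 0.32 for supernumerary subunits. At an unadjusted p under 0.05 were 15 of 22 and 31 of 56, against 5.23% of all genes. For core subunits that count was 16, 7, 4, 7 and 11 without wild-type replicates 1 and 2 and ieCtnnb1KO replicates 1, 2 and 3. Over all genes the shares were 4.94%, 2.27%, 1.7%, 2.9% and 2.92% in the same order. The core median lay between 0.35 and 0.42 with any 1 library left out, while the supernumerary median ran from 0.03 to 0.32.

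Complex I, the entry point for electrons from NADH, had 30 of 36 members higher in ieCtnnb1KO crypts, 14 of them at an unadjusted p under 0.05 and 16 without overlap (38.9% and 44.4%, against 3.48% and 6.79% of all genes). Ndufv1, the subunit that binds FMN and accepts electrons from NADH, had FPKM of 58.6, 57.1 and 58.6 in wild-type and 77.9, 76.7 and 73.9 in ieCtnnb1KO crypts. The wild-type values were within 2 FPKM of each other and all knockout values lay above them, with the standard error given after ± here and below (log2 fold change 0.39 ± 0.11, adjusted p = 0.757 in limma). Ndufs1, the largest iron-sulfur subunit, had FPKM of 17.5, 15.7 and 14.3 in wild-type and 20.9, 19.6 and 20.4 in ieCtnnb1KO crypts, again without overlap (log2 fold change 0.35 ± 0.12, adjusted p = 0.800 in limma). All 7 core subunits of complex I tested had groups that did not overlap and log2 fold changes between 0.31 and 0.48. The other members at an unadjusted p under 0.05 were the supernumerary subunits Ndufa9, Ndufa10, Ndufa11, Ndufb2, Ndufb5, Ndufb10 and Ndufc2, while Ndufc1 and Ndufs4 had groups that did not overlap at a larger p. Lower in the fit were Ndufa1, Ndufa6, Ndufa12, Ndufb3, Ndufb4 and Ndufs6. Over the supernumerary members of the complex the range was -0.26 to 0.62.

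At the upper end of that range was Ndufa11 (ENSMUSG00000002379, chr17:56717767-56722141, plus strand), which sits in the membrane arm of complex I. Ndufa11 had FPKM of 46.8, 40.0 and 50.4 in wild-type and 73.0, 75.7 and 62.7 in ieCtnnb1KO crypts. All knockout libraries lay above all wild-type libraries, and this was the largest log2 fold change of any member in crypts (log2 fold change 0.62 ± 0.14, adjusted p = 0.728 in limma). At the other end, Ndufs6, a zinc-binding supernumerary subunit, had FPKM of 24.7, 23.9 and 64.6 in wild-type and 27.8, 27.7 and 29.0 in ieCtnnb1KO crypts. Wild-type replicate 3 stood far above the other 5 libraries, which lay within 6 FPKM of each other. The log2 fold change of Ndufs6 was -0.26 with that library and 0.21 without it. Ndufs6 shares 30 exon bases with Mrpl36, a gene of similar level on the opposite strand. The strand used in counting is not given in the sources used here. Ndufa4, a subunit named for complex I but known as part of complex IV, had FPKM of 112, 89.8 and 115 in wild-type and 119.8, 128 and 96.1 in ieCtnnb1KO crypts, and the groups overlapped. Its relative Ndufa4l2, known as a gene induced in low oxygen, was under 0.4 FPKM in all 6 crypt libraries.

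Complex II, succinate dehydrogenase, is made of nuclear subunits only and also works in the TCA cycle. All 4 members were higher in ieCtnnb1KO crypts, 3 without overlap and 2 at an unadjusted p under 0.05 (75% and 50%, against 6.79% and 3.48% of all genes). Sdhb (ENSMUSG00000009863, chr4:140961203-140979193, plus strand) carries the iron-sulfur clusters. Sdhb had FPKM of 97.5, 92.1 and 83.1 in wild-type and 146, 124 and 129.7 in ieCtnnb1KO crypts, means of 90.9 ± 7.31 and 133 ± 11.8 (SD, n = 3). The knockout libraries were all higher, by 46.6% of the wild-type mean (log2 fold change 0.55 ± 0.13, adjusted p = 0.740 in limma), and the exact permutation p over 3 against 3 libraries was 0.1, the smallest that a two-sided test of this size allows. Sdha, the flavoprotein that oxidizes succinate, had FPKM of 97.8, 90.5 and 106 in wild-type and 127, 114 and 121 in ieCtnnb1KO crypts, without overlap (log2 fold change 0.30). Sdhc, a membrane anchor, had FPKM of 55.4, 50.4 and 55.1 in wild-type and 75.8, 68.5 and 68.9 in ieCtnnb1KO crypts, also without overlap (log2 fold change 0.40). For the other anchor, Sdhd, the values were 164, 158 and 209.8 in wild-type and 234, 205 and 212 in ieCtnnb1KO libraries. Here wild-type replicate 3 fell among the knockout libraries, and the log2 fold change was 0.30.

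**Figure D3:**
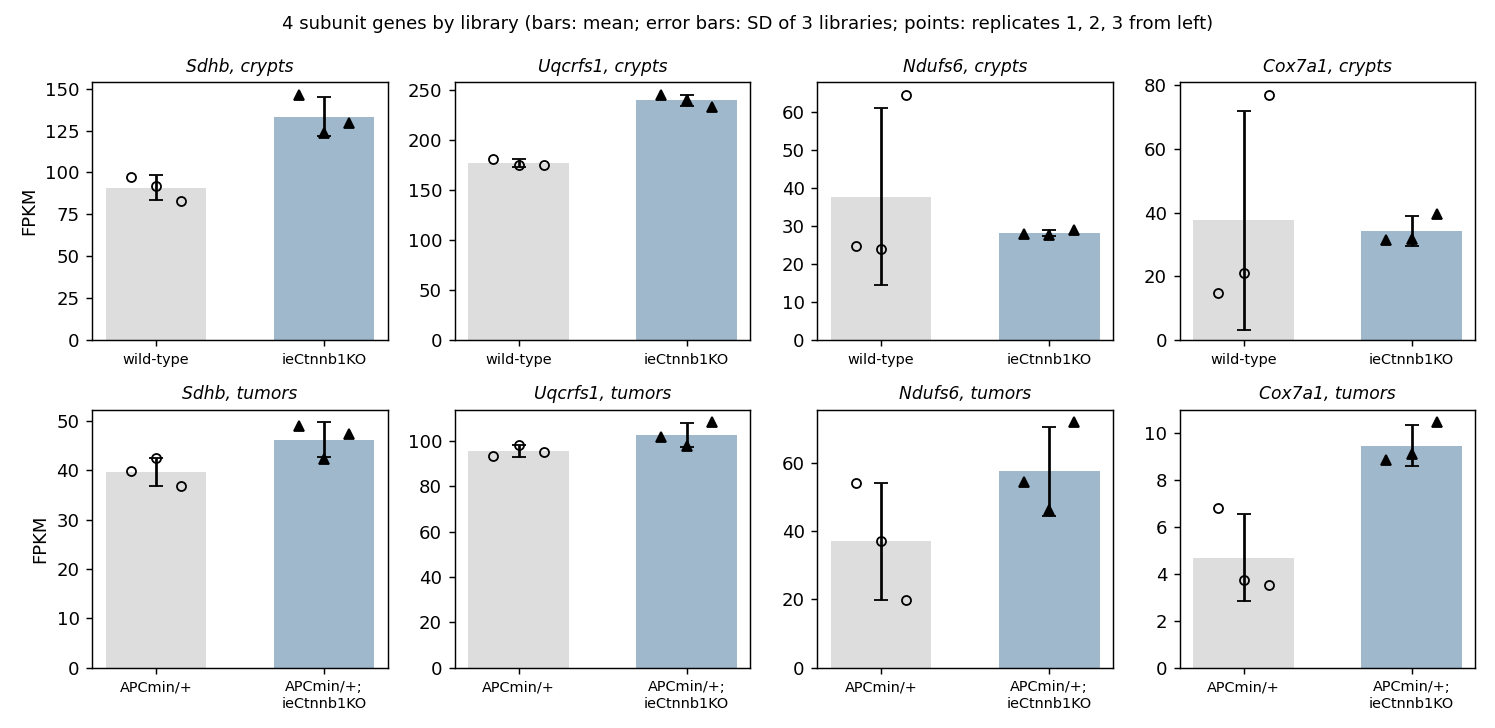
FPKM of Sdhb, Uqcrfs1, Ndufs6 and Cox7a1 in each library of crypts (top) and tumors (bottom). Bars are means, error bars are the SD of 3 libraries, and points are replicates 1, 2 and 3 from left to right. Sdhb and Uqcrfs1 did not overlap between the crypt groups, while wild-type crypt replicate 3 reached 64.6 FPKM for Ndufs6 and 77.0 FPKM for Cox7a1.

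In complex III, 6 of 8 members were higher in ieCtnnb1KO crypts, 5 without overlap and 3 at an unadjusted p under 0.05 (62.5% and 37.5%, against 6.79% and 3.48% of all genes). Uqcrfs1, the Rieske protein that takes electrons from ubiquinol, had FPKM of 181, 175 and 175 in wild-type and 245, 240.4 and 233 in ieCtnnb1KO crypts. The knockout libraries were all above the wild-type libraries, and both groups were tight (log2 fold change 0.44 ± 0.12, adjusted p = 0.771 in limma). Uqcrc1, a core protein of the matrix side, had FPKM of 124, 116 and 97.1 in wild-type and 153, 147 and 159 in ieCtnnb1KO crypts, without overlap (log2 fold change 0.45). Uqcrh, the acidic hinge protein near cytochrome c1, measured 119, 111 and 147 in wild-type and 198, 179.9 and 158 in ieCtnnb1KO libraries. It had the largest log2 fold change of the complex, 0.51, and the groups did not overlap. Uqcrc2, the second core protein, and Uqcr10 also had groups that did not overlap, at log2 fold changes of 0.29 and 0.26. Uqcr11, a small supernumerary subunit, had FPKM of 81.9, 65.6 and 164 in wild-type and 88.6, 101 and 82.1 in ieCtnnb1KO crypts, where wild-type replicate 3 was the highest library of all 6. Its log2 fold change was -0.09 with that library and 0.30 without it.

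Complex IV, cytochrome c oxidase, had 10 of 13 members higher in ieCtnnb1KO crypts, 4 without overlap and 2 at an unadjusted p under 0.05 (30.8% and 15.4%, against 6.79% and 3.48% of all genes). Cox5a, a matrix-side subunit, had FPKM of 69.8, 60.4 and 66.6 in wild-type and 83.3, 92.3 and 85.4 in ieCtnnb1KO crypts. The groups did not overlap (log2 fold change 0.41 ± 0.12, adjusted p = 0.797 in limma). Cox7a2, the form of subunit 7a found in most tissues, had FPKM of 129, 103 and 139.8 in wild-type and 183, 179 and 163 in ieCtnnb1KO crypts. This was the largest log2 fold change of the complex, 0.50, again without overlap. Cox4i1, the common form of subunit 4, had FPKM of 283, 264 and 318 in wild-type and 356, 371 and 331 in ieCtnnb1KO crypts, without overlap (log2 fold change 0.29). For Cox6a1 the values were 579, 491 and 586 in wild-type and 573, 620.0 and 627 in ieCtnnb1KO libraries, and the groups overlapped. Cox8a had FPKM of 404, 395 and 649.7 in wild-type and 386, 422 and 428 in ieCtnnb1KO crypts. Wild-type replicate 3 was far above the other libraries, and the log2 fold change of -0.19 became 0.04 without it. Cox6b1 ranged from 183 to 325 FPKM and Cox7a2l, which is known for joining complexes III and IV, from 114 to 168, both with overlap.

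Complex V, the ATP synthase, had 16 of 17 members higher in ieCtnnb1KO crypts, 7 without overlap and 6 at an unadjusted p under 0.05 (41.2% and 35.3%, against 6.79% and 3.48% of all genes). Atp5a1, the α subunit of the catalytic head, had FPKM of 483, 455 and 427 in wild-type and 599.9, 572 and 591 in ieCtnnb1KO crypts. All knockout libraries lay above all wild-type libraries (log2 fold change 0.37 ± 0.15, adjusted p = 0.845 in limma). Atp5b, the β subunit that forms ATP, had FPKM of 405, 372 and 396 in wild-type and 454, 463 and 466 in ieCtnnb1KO crypts, also without overlap (log2 fold change 0.24). The ring that turns in the membrane is built of subunit c, for which 3 genes encode the same mature protein. Atp5g1 had FPKM of 33.5, 27.5 and 26.6 in wild-type and 36.7, 42.7 and 40.2 in ieCtnnb1KO crypts, the largest log2 fold change of the complex at 0.44. Atp5g2 measured 72.7, 64.0 and 64.8 and 90.9, 96.1 and 73.1 in the same order, and Atp5g3 154, 139 and 229 and 234, 223 and 222. Groups did not overlap for Atp5g1 and Atp5g2, nor for Atp5c1, Atp5d and Atp5f1, the γ, δ and b subunits (log2 fold changes 0.37, 0.37 and 0.37), while for Atp5g3 wild-type replicate 3 fell among the knockout libraries. Atp5mpl, a small proteolipid, had FPKM of 72.6, 70.2 and 94.8 in wild-type and 63.8, 74.4 and 73.3 in ieCtnnb1KO crypts, the only member of complex V with a lower mean in the fit (log2 fold change -0.16), and its groups overlapped.

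In colon tumors, 75 of 80 members were higher in APCmin/+;ieCtnnb1KO than in APCmin/+ libraries (93.8%, against 51.3% of the 16743 genes tested); the largest log2 fold changes were those of Cox7a1, Ndufa4l2, Atp5k, Cox6b2 and Uqcr11, all supernumerary subunits. With quantile normalization 59 of 80 were higher, and the median of complex II turned from 0.15 to -0.02. The test in limma called 0 of 80 members (0.0% of all genes), with a lowest adjusted p of 0.269. At an unadjusted p under 0.05, 21 members were higher (26.2%, against 8.46% of all genes) and 0 lower (against 6.0%). Groups did not overlap for 19 members that were higher (23.8%, against 11.4%) and for 0 that were lower (against 10.6%). The median log2 fold change was 0.26, against 0.01 over all genes tested, and by complex it was 0.25, 0.15, 0.34, 0.35 and 0.23 from I to V. Without APCmin/+;ieCtnnb1KO replicate 3, which held the highest value of 71 members, 66 of 80 were higher, the median was 0.15 and the number at an unadjusted p under 0.05 was 6 (7.5%, against 6.41% of all genes), so that little was left of the difference between members and all genes in this count. Without APCmin/+;ieCtnnb1KO replicate 2 the median was 0.37 and the number 42 (52.5%, against 9.21% of all genes). Leaving out APCmin/+ replicate 2 left 8 (10%, against 5.09% of all genes), APCmin/+ replicate 3 left 5 (6.25%, against 5.09% of all genes) and APCmin/+;ieCtnnb1KO replicate 1 left 7 (8.75%, against 6.65% of all genes). Quantile normalization left 10 (12.5%, against 6.62% of all genes). The medians of complexes I, III and V without APCmin/+;ieCtnnb1KO replicate 3 were 0.15, 0.18 and 0.13, and that of complex II without APCmin/+ replicate 3 was 0.05.

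By role, the order of the medians in tumors was not that of crypts, and the difference between roles was not tested in either tissue. Median gene length was 2210 bases for core and 1217 for supernumerary subunits in tumors, and its part in this difference was not tested. The 22 core subunits had a median log2 fold change of 0.13, which turned to -0.02 with quantile normalization. Of them, 1 had an unadjusted p under 0.05 (4.55%, against 8.46% of all genes). The 58 supernumerary subunits had a median of 0.34, positive under each scaling tried. At an unadjusted p under 0.05 were 20 of them (34.5%, against 8.46% of all genes), and 10 with quantile normalization (against 6.62%). Without APCmin/+;ieCtnnb1KO replicate 3 these medians were 0.09 and 0.21, with 0 and 6 members at that level (against 6.41% of all genes).

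In complex I, 34 of 37 members were higher in the knockout tumors, 8 at an unadjusted p under 0.05 and 6 without overlap (21.6% and 16.2%, against 8.46% and 11.4% of all genes). Quantile normalization turned 6 of the 34 below 0. Ndufb10, a supernumerary subunit of the membrane arm, was chosen after its values were seen as the only member with an unadjusted p under 0.05 in both tissues when all 12 libraries are used. In crypts, Ndufb10 measured 51.3, 49.3 and 70.5 in wild-type and 80.8, 81.9 and 71.5 in ieCtnnb1KO crypts. In tumors, its values were 41.7, 37.9 and 34.0 in the APCmin/+ and 55.2, 45.6 and 62.3 in the APCmin/+;ieCtnnb1KO libraries. The groups did not overlap in either tissue, and the log2 fold changes were 0.47 and 0.51, with adjusted p = 0.806 and 0.276 in limma. Ndufa2, a small subunit with a thioredoxin-like fold and the most abundant member of complex I here, had FPKM of 108, 84.7 and 64.8 in APCmin/+ and 125, 108 and 179 in APCmin/+;ieCtnnb1KO tumors. The groups did not overlap, though APCmin/+ replicate 1 and APCmin/+;ieCtnnb1KO replicate 2 were nearly equal, and the log2 fold change was 0.67. Among the core subunits, Ndufv2, an iron-sulfur subunit next to the NADH site, measured 37.0, 36.3 and 39.6 and 41.3, 39.9 and 51.7 in the same order, without overlap (log2 fold change 0.22). Ndufv1 had FPKM of 46.7, 47.5 and 41.6 in APCmin/+ and 57.01, 43.0 and 59.8 in APCmin/+;ieCtnnb1KO tumors, with overlap (log2 fold change 0.22). Ndufs1 had FPKM of 11.6, 13.3 and 12.2 in APCmin/+ and 11.8, 11.97 and 11.4 in APCmin/+;ieCtnnb1KO tumors, also with overlap (log2 fold change -0.07). Ndufb2 had FPKM of 1.61, 2.97 and 1.54 in APCmin/+ and 1.72, 1.73 and 1.97 in APCmin/+;ieCtnnb1KO tumors, where APCmin/+ replicate 2 was the highest, and this was the smallest log2 fold change of the complex at -0.10. Ndufb2 shares 146 exon bases with Braf, a gene of like level on the opposite strand. The other members of complex I at an unadjusted p under 0.05 were Ndufa1, Ndufa3, Ndufa5, Ndufa8, Ndufa13 and Ndufa4l2, all supernumerary, and Ndufa12 was the remaining member lower in the fit. Ndufa4 ranged from 75.2 to 127 FPKM and Ndufa11 from 36.3 to 63.4, both with overlap.

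In complex II, all 4 log2 fold changes lay between 0.00 and 0.22, a direction that quantile normalization turned for Sdhc, Sdhd and the median of the complex and rescaling to the same total for Sdhc, and 0 of 4 had an unadjusted p under 0.05 in limma. Sdhb had FPKM of 39.9, 42.5 and 36.8 in APCmin/+ and 48.9, 42.2 and 47.4 in APCmin/+;ieCtnnb1KO tumors. APCmin/+ replicate 2 lay just above APCmin/+;ieCtnnb1KO replicate 2, so the groups overlapped (log2 fold change 0.22 ± 0.10, adjusted p = 0.368 in limma). Sdha ranged from 51.7 to 71.7 FPKM, Sdhc from 29.5 to 34.2 and Sdhd from 105 to 145, all with overlap.

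In complex III, 7 of 8 members were higher in the knockout tumors, 4 at an unadjusted p under 0.05 and 3 without overlap (50% and 37.5%, against 8.46% and 11.4% of all genes). Uqcrb, a small subunit near the ubiquinone site, had FPKM of 60.1, 50.7 and 45.7 in APCmin/+ and 68.1, 73.4 and 89.1 in APCmin/+;ieCtnnb1KO tumors. All knockout libraries lay above all APCmin/+ libraries (log2 fold change 0.55 ± 0.14, adjusted p = 0.269 in limma). Uqcr11 had FPKM of 103, 72.7 and 60.7 in APCmin/+ and 149, 100.5 and 168 in APCmin/+;ieCtnnb1KO tumors. This was the largest log2 fold change of the complex, 0.82, but APCmin/+ replicate 1 lay above APCmin/+;ieCtnnb1KO replicate 2. Uqcr10, the most abundant member of the complex, had FPKM of 164, 145 and 159 in APCmin/+ and 199, 169 and 256 in APCmin/+;ieCtnnb1KO tumors, without overlap (log2 fold change 0.40). Uqcrq had an unadjusted p under 0.05 as well, and Uqcrh had groups that did not overlap. The core proteins had smaller values, with log2 fold changes of 0.10 for Uqcrfs1, 0.11 for Uqcrc1 and -0.01 for Uqcrc2, and quantile normalization turned the first 2 below 0.

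In complex IV, 13 of 14 members were higher in the knockout tumors, 7 at an unadjusted p under 0.05 and 8 without overlap (50% and 57.1%, against 8.46% and 11.4% of all genes). Cox6b2 (ENSMUSG00000051811, chr7:4751792-4753094, minus strand) encodes a form of subunit 6b known from testis. Cox6b2 had FPKM of 5.30, 4.92 and 4.16 in APCmin/+ and 8.52, 7.82 and 10.6 in APCmin/+;ieCtnnb1KO tumors, means of 4.79 ± 0.577 and 8.998 ± 1.47 (SD, n = 3). All knockout libraries were higher, and this was the smallest p of any member (log2 fold change 0.84 ± 0.15, adjusted p = 0.269 in limma). Cox7a1 (ENSMUSG00000074218, chr7:30184144-30186078, plus strand) encodes the form of subunit 7a of heart and skeletal muscle. Cox7a1 had FPKM of 6.81, 3.74 and 3.50 in APCmin/+ and 8.83, 9.09 and 10.4 in APCmin/+;ieCtnnb1KO tumors. Again the groups did not overlap, and this was the largest log2 fold change of any member in tumors (log2 fold change 0.99 ± 0.24, adjusted p = 0.269 in limma). Cox6a1 had FPKM of 376, 278 and 273 in APCmin/+ and 439, 392 and 476 in APCmin/+;ieCtnnb1KO tumors, without overlap (log2 fold change 0.51). Cox4i1 had FPKM of 207, 189.6 and 173 in APCmin/+ and 238, 209.7 and 284 in APCmin/+;ieCtnnb1KO tumors, without overlap (log2 fold change 0.35). For Cox8a the values were 429, 350.2 and 280.4 and 500.4, 404 and 613 in the same order, with overlap, and for Cox5a 51.7, 55.1 and 49.8 and 52.6, 54.9 and 67.5, also with overlap. Cox5b, Cox7b and Cox7c were the other members at an unadjusted p under 0.05, with log2 fold changes of 0.70, 0.32 and 0.45. Cox7a2 ranged from 76.1 to 122 FPKM and Cox6b1 from 143 to 267 with overlap, and Cox7a2l from 106 to 132 without. Cox4i2, the form of subunit 4 known from lung and low oxygen, was measured in every tumor library, from 1.34 to 2.45.

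In complex V, all 17 members had log2 fold changes above 0 in tumors, from 0.02 to 0.88, a direction that quantile normalization turned for Atp5a1, Atp5b, Atp5c1, Atp5g2 and Atp5g3 among those named here, and rescaling to the same total for Atp5c1. An unadjusted p under 0.05 was found for Atp5k and Atp5e, the latter being the ε subunit of the stalk, and groups did not overlap for Atp5d and Atp5s, which makes 2 of 17 members in each case (11.8%, against 8.46% and 11.4% of all genes). Atp5k, subunit e, which helps ATP synthases pair, had FPKM of 54.2, 23.7 and 27.4 in APCmin/+ and 58.6, 45.2 and 85.1 in APCmin/+;ieCtnnb1KO tumors. APCmin/+ replicate 1 lay above APCmin/+;ieCtnnb1KO replicate 2, so the groups overlapped in spite of the largest log2 fold change of the complex (log2 fold change 0.88 ± 0.35, adjusted p = 0.338 in limma). Atp5a1 had FPKM of 318, 355 and 303 in APCmin/+ and 358, 309.6 and 366 in APCmin/+;ieCtnnb1KO tumors, with overlap (log2 fold change 0.08). Atp5b had FPKM of 290.4, 308 and 268 in APCmin/+ and 326, 268 and 328 in APCmin/+;ieCtnnb1KO tumors, also with overlap (log2 fold change 0.09). Atp5c1, the central stalk subunit γ, had the smallest log2 fold change at 0.02. Among the genes of subunit c, the ranges over 6 libraries were 14.96 to 27.4 FPKM for Atp5g1, 66.1 to 93.9 for Atp5g2 and 102 to 152 for Atp5g3.

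Isoform pairs were compared as ratios within a library, which do not depend on how libraries are scaled. Of 20 ratios, 15 had values above 0 in every library and were tested with the two-sided exact permutation test. Cox6b2 per Cox6b1 was 2.92, 2.73 and 2.92% in APCmin/+ and 4.32, 4.36 and 3.99% in APCmin/+;ieCtnnb1KO tumors. The knockout tumors were all higher, with an exact p = 0.1 and 0.375 after adjustment over the 15 ratios. Cox7a1 per Cox7a2 was 8.44, 4.06 and 4.6002% in APCmin/+ and 10.3, 11.48 and 8.55% in APCmin/+;ieCtnnb1KO tumors, where knockout replicate 3 lay just above APCmin/+ replicate 1. Ndufa4l2 per Ndufa4 was 3.07, 1.20 and 2.12% in APCmin/+ and 4.02, 4.16 and 4.26% in APCmin/+;ieCtnnb1KO tumors. These also had an exact p = 0.1 and 0.375 adjusted, so that 3 minor forms made up a larger share next to their common forms in every knockout tumor. Ndufa4l2 itself, tested in tumors only, was at 2.88, 1.38 and 1.83 and 4.37, 3.13 and 5.39 FPKM in the same order (log2 fold change 0.94). It shares 32 exon bases with Shmt2, a more abundant gene on the opposite strand. In crypts the ratio of Cox7a2l to Cox7a2 was 108, 110.4 and 94.2% in wild-type and 92.0, 92.8 and 78.7% in ieCtnnb1KO crypts. Here the knockout libraries were all lower, again with an exact p = 0.1 and 0.375 adjusted. The remaining 11 ratios overlapped between groups, among them those of the 3 genes of subunit c. Cox4i2 and Cox8b were listed at 0 in most or all crypt libraries, so no ratio was tested for them there.

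Whether the knockout differed in its effect between tissues was tested as a difference of differences over all 12 libraries. In limma, 0 of 13370 genes had an adjusted p under 0.05 for this difference (lowest 0.193), and the lowest among members was 0.528. At an unadjusted p under 0.05, 1 of 78 members had a larger log2 fold change in tumors (against 4.8% of all genes) and 7 had a smaller one (against 3.67%). The larger one was Cox6b2, with -0.09 in crypts and 0.84 in tumors. Its crypt levels were 1.52, 1.298 and 3.80 in wild-type and 2.33, 1.99 and 1.35 in ieCtnnb1KO libraries, and without wild-type replicate 3 the crypt value was 0.31. The smaller ones were Ndufs1, Sdhc, Uqcrfs1, Ndufa9, Atp5c1, Ndufa11 and Uqcrc1, of which 5 are core subunits. They are named after their values were seen, and the part of gene length in this list was not tested. The test was not run without wild-type crypt replicate 3. For Ndufs1 the log2 fold change was 0.35 in crypts and -0.07 in tumors, and for Ndufa11 0.62 and 0.02.

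Among the 78 members tested in both tissues, 63 were higher in both knockout groups (80.8%, against 29.5% of the 13370 genes tested in both). How far the 2 tissues were alike depended on which libraries were included. Of 27 members at an unadjusted p under 0.05 in crypts and 20 in tumors, 1 was in both lists, namely Ndufb10 (1.28%, against 0.359% of all genes), and the knockout groups lay above the controls without overlap in both tissues for 7 (8.97%, against 1.11%). The Spearman correlation of the log2 fold changes between tissues was -0.556 across these genes, which share libraries and are not independent replicates. Without wild-type crypt replicate 3, chosen after seeing the data, 73 members were higher in both (93.6%, against 29.9% of all genes), 13 of 46 and 20 members were in both lists (16.7%, against 0.956%), and the correlation was 0.07. With APCmin/+;ieCtnnb1KO replicate 3 left out instead, 54 members were higher in both (69.2%, against 26.7% of all genes) and the correlation was -0.56. Of 27 and 5 members, 1 was in both lists (1.28%, against 0.232%). With both libraries left out, 64 members were higher in both (82.1%, against 27.6%) and 3 were in both lists (3.85%, against 0.603%). The correlation was then 0.02. Cox7a1, Uqcr11 and Ndufs6, named after their values were seen, had large values in tumors and were shorter than 1 kb. Their highest crypt level was in wild-type replicate 3. Ndufa4l2 and Cox6b2, with large tumor values of 0.94 and 0.84, were longer, at 1095 and 1108 bases. In wild-type crypt replicate 3 Ndufa4l2, not tested in crypts, was below the other wild-type libraries, while Cox6b2 was highest there. Cox7a1 had FPKM of 14.6, 20.9 and 77.0 in wild-type and 31.2, 31.7 and 39.5 in ieCtnnb1KO crypts. That library was the highest by far, and the crypt log2 fold change of 0.24 became 0.94 without it. Ndufs6 had FPKM of 54.1, 37.3 and 19.8 in APCmin/+ and 54.5, 46.2 and 71.8 in APCmin/+;ieCtnnb1KO tumors, with overlap (log2 fold change 0.72).

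**Figure D4:**
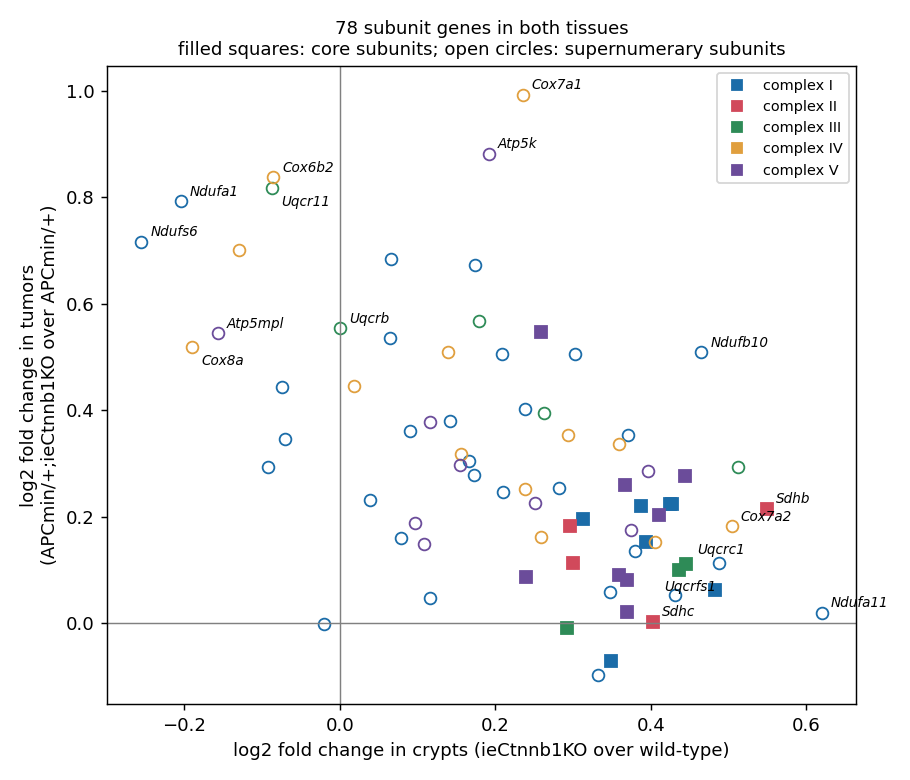
Log2 fold change of 78 subunit genes in crypts (x axis) and in tumors (y axis). Filled squares are core subunits, open circles supernumerary subunits, and colors mark the complexes. Core subunits all have positive values in crypts, and most lie near the x axis, with Atp5e higher at 0.55 in tumors. Their medians were 0.38 in crypts and 0.13 in tumors (-0.02 with quantile normalization). Small subunits such as Cox7a1 and Uqcr11 lie at the top.

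The results varied with gene length. In tumors the median log2 fold change of the members was 0.47, 0.30, 0.20 and 0.14 for genes under 1 kb, 1 to 2 kb, 2 to 4 kb and over 4 kb. Over all protein-coding genes tested the same classes had 0.26, 0.18, 0.07 and -0.04, so short protein-coding genes in general had higher values in the knockout tumors. In crypts the members had 0.19, 0.22, 0.35 and 0.36, and all protein-coding genes 0.03, 0.07, 0.04 and -0.00, where the value over 4 kb changed sign with rescaling to the same total, and those under 1 kb and from 2 to 4 kb did so with the same total without the 50 highest genes. Without wild-type replicate 3 the crypt medians of the members were 0.36, 0.33, 0.31 and 0.37. The Spearman correlation of length with log2 fold change was 0.36 over 78 members in crypts and -0.54 over 80 in tumors, and -0.14 and -0.33 over protein-coding genes, which are not independent replicates. Without wild-type crypt replicate 3 the value for members in crypts was -0.09, and without APCmin/+;ieCtnnb1KO replicate 3 that in tumors was -0.49. With the median of its length class subtracted from each member, an alternative chosen after seeing the data, the members' median was 0.22 in crypts and 0.14 in tumors. The part of length in the results was not tested further.

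**Figure D5:**
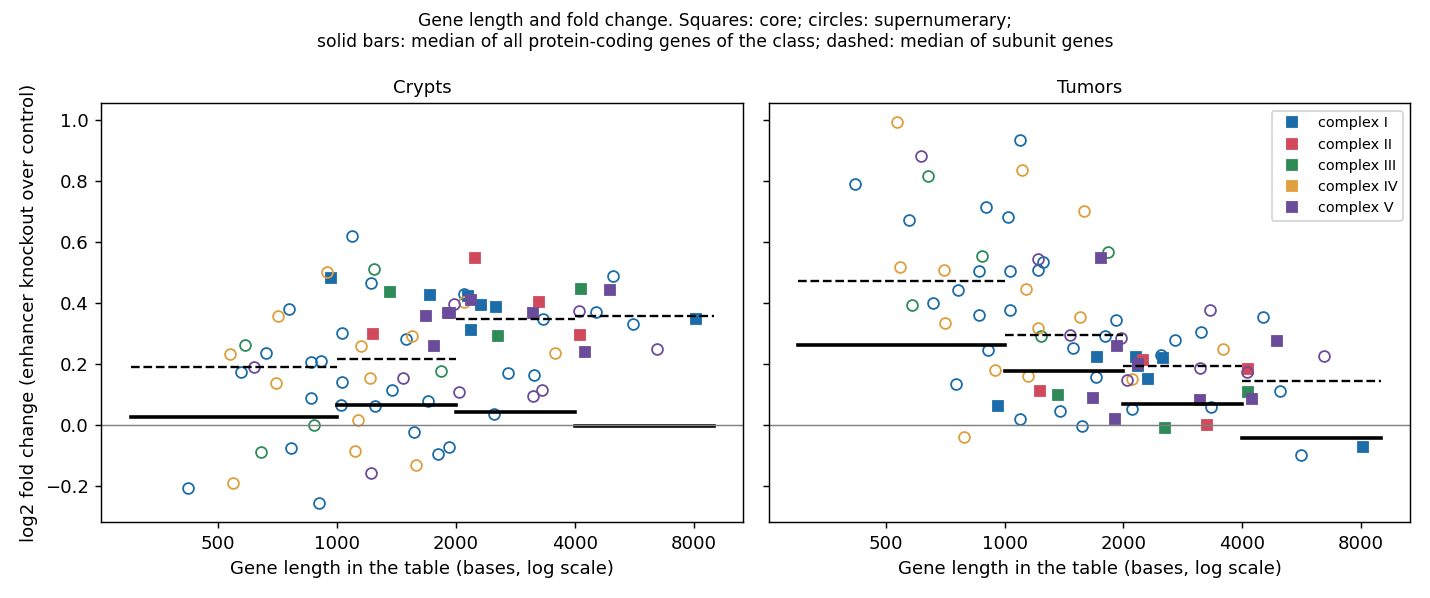
Log2 fold change of each subunit gene against its length in the table (log scale), in crypts on the left and tumors on the right. Squares are core and circles supernumerary subunits, dashed bars are medians of the subunit genes of a length class, and solid bars are medians of all protein-coding genes of the class. In tumors the solid bar falls from 0.26 for genes under 1 kb to -0.04 for genes over 4 kb.

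Other genes of the pathway were read from fixed lists. The 13 subunits encoded in mitochondrial DNA were all lower in the fit in ieCtnnb1KO crypts, with a median log2 fold change of -0.43, while 66 of 78 nuclear members were higher. With quantile normalization 6 of the 13 were higher and the median was 0.00, and 60 of the 78 nuclear members were higher. Their summed FPKM was 99833, 158309 and 118304 in wild-type and 87113, 79361 and 122511 in ieCtnnb1KO crypts, led by mt-Co1. Wild-type replicate 2 was far above the rest and the groups overlapped, and 1 gene, mt-Atp8, was lower at an unadjusted p under 0.05 with 0 of 13 called in limma. In tumors 5 of 13 were higher, the median was -0.15, and mt-Co3 and mt-Atp8 were higher at an unadjusted p under 0.05. With quantile normalization the tumor median was -0.02, with 1 gene in each direction at that level. Protein-coding transcripts of mitochondrial DNA took 13.3, 18.4 and 14.7% of fragments in wild-type crypts and 11.3, 10.5 and 14.5% in ieCtnnb1KO crypts. In the tumor libraries they took between 1.41% and 2.24%. The nuclear members took 1.39, 1.13 and 1.38% in wild-type and 1.66, 1.70 and 1.47% in ieCtnnb1KO crypts. Here every knockout library was above every wild-type library. In tumors their shares were 0.966, 0.950 and 0.848% and 1.06, 0.921 and 1.17%, with overlap.

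All 13 genes of the TCA cycle tested were higher in ieCtnnb1KO crypts, with a median log2 fold change of 0.31 that stayed positive under each scaling tried, 4 of them at an unadjusted p under 0.05 (30.8%, against 3.48% of all genes) and 0 called in limma. That count was 1 with quantile normalization and 1 with the same total without the 50 highest genes. Mdh2, mitochondrial malate dehydrogenase, had FPKM of 179, 167 and 162 in wild-type and 279, 252 and 280.0 in ieCtnnb1KO crypts. The groups did not overlap (log2 fold change 0.67 ± 0.13, adjusted p = 0.728 in limma). In tumors the median of the list was 0.02, and it turned below 0 with rescaling to the same total and with quantile normalization. Of 17 subunits and carriers that the name rule leaves out, 16 were higher in crypts (median 0.21) and 15 in tumors (median 0.13). In each, 3 had an unadjusted p under 0.05 (17.6%, against 3.48% of all genes in crypts and 8.46% in tumors). That count was 1 in crypts with the same total without the 50 highest genes, and 1 in tumors with quantile normalization. Cyc1, cytochrome c1 of complex III, was among the 3 of crypts, at 165, 146 and 143 in wild-type and 199, 189.8 and 202 in ieCtnnb1KO crypts. Cycs, cytochrome c itself, was among the 3 of tumors, at 26.3, 27.5 and 20.1 in APCmin/+ and 33.9, 30.4 and 38.6 in APCmin/+;ieCtnnb1KO tumors. Both had groups that did not overlap. Assembly factors, which build the complexes but do not stay in them, were higher for 33 of the 43 tested in crypts (Pet117 and Sco2 were at 0, median 0.14, 0 at an unadjusted p under 0.05 in limma) and for 29 of 43 in tumors (median 0.09, 5 or 11.6% at that level, against 8.46% of all genes).

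Among 15 regulators of mitochondrial biogenesis, 11 were higher in ieCtnnb1KO crypts (median 0.07), 0 of them at an unadjusted p under 0.05 in limma. In tumors 4 of 15 were higher (median -0.06), with 1 gene in each direction at that level. Esrra, a nuclear receptor that binds respiratory genes, was at 44.8, 39.3 and 33.9 in APCmin/+ and 52.1, 48.9 and 54.8 in APCmin/+;ieCtnnb1KO tumors (log2 fold change 0.40). Ppargc1a, its coactivator, was at 3.86, 5.17 and 7.56 in APCmin/+ and 3.72, 2.61 and 3.48 in APCmin/+;ieCtnnb1KO tumors (log2 fold change -0.64). The first was higher and the second lower in every knockout tumor than in any APCmin/+ tumor, with adjusted p = 0.286 and 0.325 in limma. Ribosomal protein genes, which are also short and abundant, had medians of 0.12 in crypts and 0.20 in tumors for 76 cytosolic genes, and 0.18 and 0.16 for 77 mitochondrial genes. With quantile normalization the medians of the cytosolic genes were 0.0317 in crypts and 0.0321 in tumors.

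The cell types in the samples were read from markers. In crypts the 9 epithelial markers summed to 4205, 4920.1 and 5172 in wild-type and 4578, 5504 and 5002 in ieCtnnb1KO crypts, with Krt8 the most abundant at a mean of 1669 FPKM. The 8 markers of stem and Paneth cells, which name the crypt base, summed to 17194, 23966 and 47378 in wild-type and 19044, 15802 and 18591 in ieCtnnb1KO crypts, with Defa24 the most abundant at a mean of 12578 FPKM. Wild-type replicate 3, the library with high short members, had the largest sum, and 3 of the 8 were higher in ieCtnnb1KO crypts, with 1 lower at an unadjusted p under 0.05. Markers of villus enterocytes, absorptive cells known for many mitochondria, were higher for 10 of 10 genes, 1 at an unadjusted p under 0.05 and 0 called in limma, with a median log2 fold change of 0.49. Their sums were 4459, 6659 and 11273 in wild-type and 9038, 6711 and 10579 in ieCtnnb1KO crypts, with Fabp2 the most abundant at a mean of 2817 FPKM. The groups overlapped, with wild-type replicate 3 the highest. Goblet cell markers were higher for 1 of 7, with sums of 6017, 9228 and 9723 in wild-type and 5462, 6545 and 8292 in ieCtnnb1KO crypts and Tff3 the most abundant at a mean of 2395 FPKM, and proliferation markers for 7 of 8, with sums of 151, 107 and 85.5 in wild-type and 131, 137 and 111 in ieCtnnb1KO crypts and Top2a the most abundant at a mean of 28.5 FPKM. None of the markers of these lists was at 0 in all 6 libraries, and their part in the members' values was not tested.

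Few other cells were seen in crypts. Of the lists for smooth muscle, fibroblasts, endothelium, immune cells, striated muscle and adipocytes, the largest sum was that of immune cells, 33.6, 32.4 and 36.1 in wild-type and 29.0, 34.2 and 25.2 in ieCtnnb1KO crypts, with Lyz2 the most abundant at a mean of 10.001 FPKM and S100a8 at 0 throughout. Smooth muscle markers summed to 3.64 to 5.06 FPKM (top gene Smtn), fibroblast markers to 3.62 to 7.79 (Dcn), endothelial markers to 0.661 to 0.929 (Pecam1), striated muscle markers to 3.66 to 8.86 (Acta1, with Actc1 and Myh4 at 0) and adipocyte markers to at most 0.0790 (Fabp4, with Adipoq, Lep and Plin1 at 0). Of 3 tested fibroblast markers, 0 were higher in ieCtnnb1KO crypts (median -0.54), with 1 lower at an unadjusted p under 0.05 (against 2.36% of all genes). Immune markers were higher for 1 of 6 tested genes, and the 1 tested smooth muscle marker was higher. Endothelial and adipocyte sums were lower in every knockout library than in any wild-type library. Mature colonocyte markers summed to 656, 975 and 974 in wild-type and 620.1, 756 and 907 in ieCtnnb1KO crypts, led by Guca2a. Of these, 3 of 6 tested genes were higher, 2 of them at an unadjusted p under 0.05 (against 3.48% of all genes). The part of any of these cells in the level of Cox7a1, a form known from muscle, was not tested.

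Several marker lists were higher in the knockout tumors by unadjusted counts. All 7 goblet cell markers were higher in APCmin/+;ieCtnnb1KO tumors, each at an unadjusted p under 0.05 and 0 called in limma, with a median log2 fold change of 1.03. They summed to 1407, 1419.9 and 1455 in APCmin/+ and 2689, 3222 and 2848 in APCmin/+;ieCtnnb1KO tumors, with Spink4 the most abundant at a mean of 865 FPKM. Epithelial markers were higher for 9 of 9 (7 with quantile normalization), 3 of them at an unadjusted p under 0.05. Their sums were 4236, 4277 and 3714 in APCmin/+ and 5026, 4922 and 5175 in APCmin/+;ieCtnnb1KO tumors, with Krt8 the most abundant at a mean of 1588 FPKM. Neither pair of groups overlapped. Mature colonocyte markers summed to 145, 137 and 157 in APCmin/+ and 216, 409.9 and 248 in APCmin/+;ieCtnnb1KO tumors, with Car1 the most abundant at a mean of 95.5 FPKM. All 8 were higher, 2 of them at an unadjusted p under 0.05 (1 with quantile normalization). Fibroblast markers summed to 354, 223 and 216 in APCmin/+ and 355, 465 and 369 in APCmin/+;ieCtnnb1KO tumors, with Col1a1 the most abundant at a mean of 121 FPKM, all 7 higher and 5 at an unadjusted p under 0.05 (2 with quantile normalization). Both lists were higher in every knockout tumor than in any APCmin/+ tumor, by a margin of under 1 FPKM for fibroblasts. Immune markers summed to 606, 693 and 760.0 in APCmin/+ and 558, 613 and 460.1 in APCmin/+;ieCtnnb1KO tumors, with Lyz2 the most abundant at a mean of 356 FPKM, 3 of 7 tested genes higher and 2 lower at that level. Stem and Paneth cell markers summed to 1567, 1681 and 1804 in APCmin/+ and 2481, 3761 and 1313 in APCmin/+;ieCtnnb1KO tumors, with Lyz1 the most abundant at a mean of 1094 FPKM, 4 of 7 tested genes higher. These last 2 lists overlapped between groups.

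The remaining lists were smaller in tumors, where 8.46% of all genes were higher at an unadjusted p under 0.05. Proliferation markers summed to 109.8 to 154 FPKM (Top2a, 3 of 8 higher), smooth muscle to 139 to 193 (Acta2, 4 of 7, 2 at an unadjusted p under 0.05 and 0 with quantile normalization), endothelium to 34.8 to 43.9 (Cdh5, 4 of 6, with groups that did not overlap) and villus enterocytes to 20.3 to 30.2 (Slc5a1, 1 of 4 tested). Striated muscle markers summed to 8.76, 2.34 and 4.11 in APCmin/+ and 5.72, 8.85 and 6.92 in APCmin/+;ieCtnnb1KO tumors, led by Acta1 with Myh4 at 0. Adipocyte markers, led by Fabp4 with Adipoq and Lep at 0, summed to 1.70, 2.10 and 2.23 in APCmin/+ and 3.14, 2.86 and 3.80 in APCmin/+;ieCtnnb1KO tumors. The part of any of these cells in the members' values of tumors was not tested.

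What a fragment can be assigned to also limits some members. Of the 80, 28 share exon bases with another gene in the annotation. For 12 of them that gene has at least 10% of the member's mean FPKM, whatever the number of shared bases. Examples are Ndufs1 with Eef1b2, over 9 bases only, and Ndufb11 with Rbm10, over 117 bases. The 6 annotated pseudogenes whose symbols carry a member's name had means of at most 0.807 FPKM in crypts, for Atp5k-ps2, and pseudogenes under other symbols were not examined.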

How the data were processed

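RNA-seq of 12 mouse libraries, 3 in each of 4 groups, was read from 2 tables of FPKM that the authors deposited, 1 for crypts and 1 for tumors, with replicates not pooled. Sums of FPKM times length differed between libraries, from 933891 to 1049127, and median-of-ratios scaling left the values as they were, so the tables already carry a scaling of that kind. According to the methods and labels, reads were cleaned, aligned with HISAT2 to mm10 and counted per gene, and the labels also list cutadapt and Cufflinks 2.2.1. The annotation release and the use of strand are not given in the sources used here. Libraries were assigned to groups by their titles. In R 4.3.3, limma 3.58.1 was fitted with a variance trend on log2(FPKM + 0.5) to all genes with a mean of at least 0.5 FPKM in a table, without covariates, and p-values were adjusted by Benjamini-Hochberg over all genes tested, with a threshold of 0.05. The difference of the knockout effect between tissues used all 12 libraries and only contrasts within a table. Isoform ratios and named genes also had an exact permutation test, two-sided, over 3 against 3 libraries, which cannot go below 0.1. The fit was tested before use on simulated data, with noise drawn independently for each gene and changes larger than those of the members. Library shifts shared by many genes were not simulated. Fold changes on this scale understate those of genes near the minimum.

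Members follow the name rule, Ndufa4 and Ndufa4l2 staying with complex I by name. Members and lists were chosen with earlier results of these data known. Described gene by gene are core subunits fixed by name, in each complex and comparison the member with the highest level and those with the largest and smallest log2 fold change, members of tissue-specific isoform families, and, as no member passed the threshold, the 3 with the smallest p per direction. Of the genes that meet this rule, 1 is not reported here. Alternatives were other pseudocounts and minimum levels, rescaling to the same total with and without the 50 highest genes, median-of-ratios and quantile scaling, no variance trend, voom on recovered fragments, protein-coding genes only, a replicate block, and leaving out each library. Sex as a covariate, subtraction of length-class medians, and the comparison of tissues and of length without a library were added after seeing the data. Ndufa4 and Ndufa4l2 were also counted with complex IV, and medians were taken over members of at least 10 FPKM. Promoters came from RefSeq and exon positions from GENCODE.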

Additional observations from a re-analysis of the deposited data

How the results depend on the processing

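Across the alternatives, 331 values of the comparisons (counts and medians) kept their direction and stayed within the spread between libraries or within 1.5 times the count, 20 moved beyond that and 1 reversed. Of the 331, at least 60 could not have moved. The tables already carry median-of-ratios scaling, and changes to the variance model, covariates or genes tested leave medians as they are. Medians under other minimum levels could not move either, as the members stayed the same, and are not among these 60. For the members followed singly by the rule of the design, 53 of 1333 values under alternatives had the opposite sign, 39 of them with both values within 1 standard error of 0. Over all members, 90 of 1422 values changed sign with another scaling or with a library left out. The cause of each change below was not tested.

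Quantile normalization left 8 crypt and 10 tumor members at an unadjusted p under 0.05 and gave complex medians from I to V of 0.13, 0.24, 0.16, 0.14 and 0.20 in crypts and 0.15, -0.0243, 0.14, 0.15 and 0.14 in tumors. It turned 6 crypt members below 0, and in tumors 17 below and 1 above. Of the tumor members followed singly, those turned were Ndufa4 -0.14, Ndufa11 -0.11, Sdhc -0.11, Sdhd -0.0963, Uqcrfs1 -0.0719, Uqcrc1 -0.0256, Cox7a2 -0.0007, Cox7a2l -0.0382, Atp5a1 -0.092, Atp5b -0.0811, Atp5c1 -0.18, Atp5g2 -0.0779, Atp5g3 -0.0185 and Cox4i2 0.0039. Rescaling to the same total gave -0.0416 for Sdhc, -0.0249 for Ndufa11 and -0.0243 for Atp5c1 in tumors, and without the 50 highest genes -0.0423, -0.0256 and -0.0249. Uqcrb in crypts, at -0.0001 in the reported fit, became 0.0252 with the same total, 0.0002 with a pseudocount of 0.1 and 0.0001 with voom. The crypt count at an unadjusted p under 0.05 was 16 without the 50 highest genes and 15 with the replicate block. The number of genes called in tumors was 1 without the variance trend, and that for the difference between tissues was 1 with a pseudocount of 0.1 and 1 with the replicate block. Libraries with the same number were not alike, with correlations of their deviations between -0.122 and 0.0541, so the block is not used elsewhere.

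With each library left out in turn, crypt members at an unadjusted p under 0.05 numbered 7 to 46, genes called in crypts 0 to 3, and tumor members at that level 5 to 42. Signs changed for up to 11 crypt members (without wild-type replicate 3) and 9 tumor members (without APCmin/+;ieCtnnb1KO replicate 3) in 1 fit. Of the members followed singly, the crypt log2 fold changes that changed sign ran as follows, Ndufa2 from -0.0268 to 0.55, Ndufs6 from -0.50 to 0.21, Uqcr11 from -0.36 to 0.30, Uqcrb from -0.18 to 0.30, Cox6b2 from -0.32 to 0.31, Cox7a1 from -0.24 to 0.94, Cox8a from -0.32 to 0.0437 and Atp5k from -0.27 to 0.90. In tumors they were Ndufa4 from -0.11 to 0.26, Ndufa11 from -0.20 to 0.20, Ndufb2 from -0.23 to 0.15, Sdhc from -0.0534 to 0.0504, Sdhd from -0.0132 to 0.22, Uqcrc2 from -0.0816 to 0.0543, Cox4i2 from -0.17 to 0.17, Cox7a2 from -0.0057 to 0.30, Atp5c1 from -0.0757 to 0.0971 and Atp5g2 from -0.0367 to 0.21. Sex as a covariate, added after seeing the data, left the tumor median at 0.26 with 17 members at an unadjusted p under 0.05. With Ndufa4 counted with complex IV, the medians of complexes I and IV were 0.24 and 0.20 in crypts and 0.25 and 0.35 in tumors.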

Other observations

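Some genes around the chain that were not described above are given here, named after their values were seen and with none called in limma. In ieCtnnb1KO crypts, Idh3a, a subunit of the TCA cycle enzyme isocitrate dehydrogenase, was at 38.7, 33.0 and 27.9 in wild-type and 42.6, 40.7 and 48.1 in ieCtnnb1KO crypts, and Dld, which serves several mitochondrial dehydrogenases, at 47.2, 42.6 and 35.8 in wild-type and 51.7, 49.8 and 57.3 in ieCtnnb1KO crypts. In both genes every knockout library was above every wild-type library. Coq7, which makes ubiquinone, the carrier between complexes I or II and III, was at 2.78, 2.62 and 3.16 in wild-type and 3.89, 4.25 and 3.43 in ieCtnnb1KO crypts, without overlap. In tumors, the assembly factors with an unadjusted p under 0.05, 5 of 43 or 11.6% against 8.46% of all genes, were Uqcc2, Uqcc3, Cox14, Coa3 and Coa6, which serve complexes III and IV. Coa6, needed for the copper site of complex IV, had FPKM of 13.7, 11.8 and 11.995 in APCmin/+ and 17.97, 15.9 and 18.9 in APCmin/+;ieCtnnb1KO tumors. The groups did not overlap, with a log2 fold change of 0.47 and an adjusted p = 0.269 in limma. Ndufab1, the mitochondrial acyl carrier protein that is also a complex I subunit, was at 11.49, 9.92 and 10.9 in wild-type and 10.6, 12.9 and 12.9 in ieCtnnb1KO crypts, with overlap.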
